A study of Mus musculus with 5 samples.

Results

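The 10 genes described here belong to families of secreted inhibitors of Wnt signalling: the sclerostin pair Sost and Sostdc1, the Dickkopf genes Dkk1, Dkk2 and Dkk3, Wif1, and the secreted frizzled-related genes Sfrp1, Sfrp2, Sfrp4 and Frzb. They are called inhibitors here by family, and not each acts only as an inhibitor. They were taken by gene symbol, and all 10 were measured, with 1 probe set each, among 23185 named genes on the array. Dkk4 and Sfrp5, of the same families, were also measured but are counted among the other antagonists below. The arrays came from 5 clones of Ocy454, a mouse cell line with osteocyte-like properties, each grown from 1 cell. From 37 clones screened for sclerostin, the study kept 12H and 15H as its 2 clones labelled high SOST, called high-Sost here, and 4L, 9L and 24L as its 3 clones labelled low SOST, called low-Sost here. All 5 were untreated, grew in the same medium with 10% serum, and spent 7 days at 37 °C. Each clone gave 1 RNA sample and 1 array, so the spread within a group is the spread between clones of 1 parental line, and clone and culture differences cannot be told apart. No genotype or transgene is given for the clones in the sources used here. Sost levels chose the clones, so its difference is a description and carries no test.

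Wnt ligands bind Frizzled receptors together with the co-receptors Lrp5 or Lrp6, which stabilises beta-catenin and, in bone, favours osteoblast formation and activity. Sclerostin and Dkk1 bind the co-receptors, sclerostin with Lrp4 as its anchor and Dkk1 with the Kremen proteins, while Wif1 and the frizzled-related proteins bind the ligands themselves. Osteocytes are the main source of sclerostin in bone.

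Values are log2 expression after RMA, which subtracts background, equalises the distributions of the arrays and condenses a gene's probes to 1 value, so 1 unit is a 2-fold step. Levels of different genes are not set against each other. The 95th percentile of 1354 olfactory and vomeronasal receptor genes, which bone cells are not known to use, served as a reference for low signal and lay between 3.37 and 3.56 over the arrays. In 5 of 10 osteocyte markers both high-Sost clones lay above all low-Sost clones, and in 1 they lay below. Over all genes these shares were 8.26% and 7.75%. The higher ones were Dmp1, Phex, Ackr3, Fam20c and Irx5. Dmp1, a mineral matrix protein, read 7.45 in 12H and 5.75 in 15H but 2.54 to 2.90 among low-Sost clones. The lower one was Pdpn, the podoplanin gene, at 8.35 in 12H and 8.06 in 15H but 8.97 to 9.20 among low-Sost clones. Mepe and Fgf23 lay under the reference in every clone. Of 9 blood and endothelial markers, 7 lay under it in every clone, among them Ptprc and Pecam1, as did 3 of 6 adipocyte, 3 of 7 chondrocyte and 1 of 6 tendon and fibroblast markers. Muscle and smooth muscle markers averaged 5.23 and 5.25 in the high-Sost clones while 4L, 9L and 24L averaged 5.39, 6.24 and 6.16. Of these 7 markers 0 lay under the reference in every clone, but Myod1 lay above it in only 1 clone and Cnn1 in 3. Without overlap 1 lay above (Des) and 3 below (Cnn1, Acta2 and Tagln), beside 8.26% and 7.75% of all genes. Osteoblast markers averaged 10.3 and 9.96 in 12H and 15H, while 4L, 9L and 24L averaged 6.59, 9.14 and 9.04. Their part in the results below was not tested.

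The upstream sequences of Sost, which chose the clones, and of Dkk1 and Wif1, the inhibitors with the widest gaps between the groups, are given first. RefSeq promoter sequences (GRCm38.p6) matched 6 of the 10 genes, and the 250 bases before the annotated start are printed 5′ to 3′ on the gene's own strand. Capitals mark matches, on either strand, to TATAAA (the TATA box), GGGCGG (the GC box) or TGTGGT (the core bound by RUNX factors).
Sost, chr11:101967016-101967265, minus strand: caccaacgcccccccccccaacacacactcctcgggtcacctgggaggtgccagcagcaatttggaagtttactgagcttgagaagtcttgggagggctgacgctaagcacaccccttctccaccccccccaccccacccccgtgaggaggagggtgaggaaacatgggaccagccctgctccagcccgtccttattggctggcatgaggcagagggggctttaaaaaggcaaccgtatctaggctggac
Dkk1, chr19:30549497-30549746, minus strand: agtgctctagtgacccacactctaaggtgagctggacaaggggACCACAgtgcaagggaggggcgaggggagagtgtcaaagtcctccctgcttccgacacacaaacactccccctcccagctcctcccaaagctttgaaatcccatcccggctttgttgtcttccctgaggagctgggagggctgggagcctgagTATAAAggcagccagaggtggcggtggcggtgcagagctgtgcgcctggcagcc
Wif1, chr10:121033754-121034003, plus strand: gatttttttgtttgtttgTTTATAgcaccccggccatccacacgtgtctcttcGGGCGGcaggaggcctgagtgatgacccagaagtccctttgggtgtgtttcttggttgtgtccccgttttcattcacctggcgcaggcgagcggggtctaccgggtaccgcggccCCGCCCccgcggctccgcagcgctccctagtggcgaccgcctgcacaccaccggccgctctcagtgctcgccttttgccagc

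The Dkk1 window held TATAAA 54 to 49 bases before the start and 1 RUNX core on the opposite strand. The Wif1 window held GGGCGG once on each strand and TATAAA on the opposite strand, 232 to 227 bases before the start. The Sost window held none of these 3 sets of letters. Among 32544 windows of the same length, 12.3% held TATAAA, 33% GGGCGG and 14% TGTGGT on either strand. The TCF/LEF letters CTTTGAT, in 3.21% of all windows, and the MEF2 motif, in 3.22%, were in 0 of the 6 member windows. By composition, the Wif1 window had 62.8% G and C and 21 CG pairs, and the Dkk1 window 60.8% and 6, against medians of 52.4% and 6 over all windows. These matches describe letters and not binding.

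Dkk1 and Wif1 read higher in both high-Sost clones than in any low-Sost clone, and Dkk3 read lower, while Sostdc1 and Dkk2 lay under the low-signal reference in all clones. The frizzled-related genes were split, with Sfrp2 and Frzb reading higher and Sfrp4 lower in the high-Sost clones, and with Sfrp1 overlapping. Of the 10 genes, 0 passed limma's test over all genes at an adjusted p under 0.05. The whole table gave 0% called higher and 0% called lower at that threshold, so this count says nothing particular to the inhibitors. At an unadjusted p under 0.05, 2 of the 10 were higher (Dkk1 and Wif1) against 3.07% of all genes, and 1 was lower (Dkk3) against 2.71%. Dkk1 and Wif1 stayed under that limit in all 11 alternative fits, while Dkk3 did so in 6 and missed it in 5 (with no moderation and without 12H, 15H, 4L or 24L). In 5 genes both high-Sost clones lay above all low-Sost clones, and in 2 they lay below. The shares over all genes were 8.26% and 7.75%. Without Sost, 6 of 9 inhibitors showed no overlap, where 16% of all genes did in either direction. Leaving out the dimmest 30% of genes kept 7 of these 9, of which 5 showed no overlap, beside 19.7% of the genes left. Of the 10 inhibitors, 3 were at least 2-fold higher without overlap (Dkk1, Wif1 and Sfrp2), against 0.867% of all genes, and 0 were at least 2-fold lower, against 0.983%. Sfrp2 fell under 2-fold without 4L (0.62). The nearest clones of the groups were only 0.19 apart in Sfrp2, 0.07 in Frzb and 0.03 in Sfrp4. The genes were proposed with earlier results of these data known, so these counts are descriptions. They leave out Dkk4 and Sfrp5, in which the groups overlapped and the range over the clones was 0.76 and 0.27. With 2 against 3 clones an exact permutation test cannot give a p under 0.1.

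**Figure D1:**
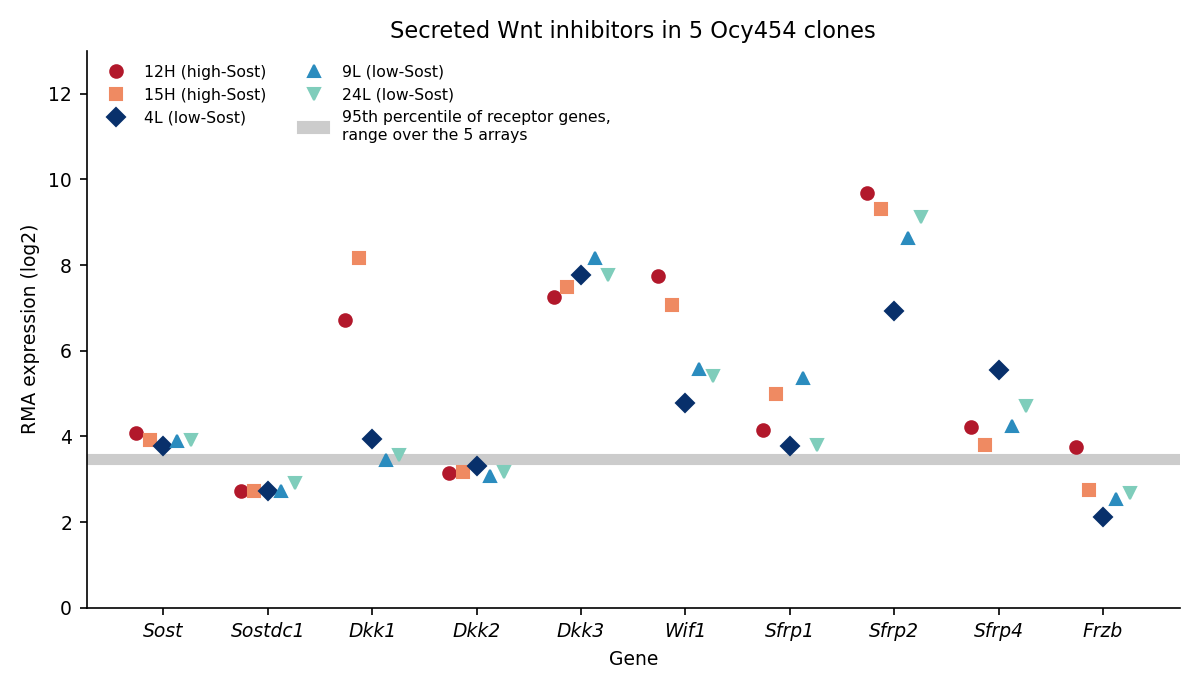
RMA expression (log2, vertical axis) of the 10 secreted Wnt inhibitors in each clone; each point is 1 array, and the grey band is the range over the arrays of the 95th percentile of 1354 receptor genes. Dkk1 and Wif1 in 12H and 15H stand clear of the 3 low-Sost clones, and Sostdc1 and Dkk2 lie under the band in every clone.

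Sost, the gene of sclerostin, read 4.08 in 12H and 3.92 in 15H, while 4L, 9L and 24L read 3.78, 3.89 and 3.91. The groups touched, since 15H exceeded 24L by 0.006. Its whole range over the clones was 0.30, smaller than that of most genes (38.8% of all genes had a smaller range). In 5 of 5 clones it lay above the low-signal reference of the array. So did the chondrocyte marker Comp, which held 3.69 on all arrays, so lying above it does not by itself show expression. The group difference was 0.14, with a 95% interval of -0.08 to 0.35, and was 0.06 without 12H and 0.22 without 15H. The array difference of the gene by which the clones were labelled was thus 1.10-fold. All 5 values lay under the median of their array (4.13 to 4.16) and not far above the low-signal reference (3.37 to 3.56). Background there makes RMA understate folds. Whether background, or a probe set insensitive to Sost, kept this difference small was not tested.

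Sostdc1, a relative of sclerostin that also binds bone morphogenetic proteins, read 2.73 in 12H, 15H, 4L and 9L alike and 2.90 in 24L. All 5 values lay under the low-signal reference. Identical values on several arrays were common, in 12969 of the 23185 named genes, and need not show equal RNA levels. Their cause was not tested. The difference was -0.06 (95% interval -0.26 to 0.14).

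Dkk1, the Dickkopf protein with the best established role in bone, read 6.71 in 12H and 8.17 in 15H. Clones 4L, 9L and 24L read 3.93, 3.46 and 3.57. The lowest high-Sost clone stood 2.78 above the highest low-Sost clone, and all 3 low-Sost clones lay little above the low-signal reference (3.45, 3.42 and 3.37 on their arrays), where background makes RMA understate folds. The high-Sost mean of 7.44 ± 1.03 (SD, n = 2) exceeded the low-Sost mean of 3.65 ± 0.25 (SD, n = 3) by 3.78 (SE 0.52, 95% interval 2.30 to 5.27), or 13.8-fold. Dkk1 ranked 11 by size of difference and 97 by p among all genes, and did not pass limma's test (adjusted p = 0.572). The high-Sost clones themselves were 1.46 apart, with 15H above 12H. The difference was 4.51 without 12H and 3.05 without 15H.

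Dkk2, a Dickkopf protein that can inhibit or enhance Wnt signals depending on context, read 3.14 in 12H and 3.18 in both 15H and 24L, while 4L and 9L read 3.31 and 3.08. The groups overlapped and every value lay under the low-signal reference. Its difference was -0.03 (95% interval -0.26 to 0.19) and turned to 0.03 without clone 4L. Dkk3, a divergent Dickkopf protein, read 7.25 in 12H and 7.49 in 15H, while 4L, 9L and 24L read 7.76, 8.17 and 7.77. The groups did not overlap, by a gap of 0.27, and Dkk3 was the Dickkopf gene that read lower in the high-Sost clones. The difference was -0.53 (SE 0.18, 95% interval -1.04 to -0.02, limma adjusted p = 0.737).

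Wif1, which binds Wnt ligands outside the cell, read 7.73 in 12H and 7.07 in 15H, while 4L, 9L and 24L read 4.79, 5.58 and 5.41. The groups were apart by 1.49 between their nearest clones. The high-Sost mean of 7.40 ± 0.47 (SD, n = 2) exceeded the low-Sost mean of 5.26 ± 0.41 (SD, n = 3) by 2.14 (SE 0.36, 95% interval 1.12 to 3.17), or 4.41-fold, which did not pass limma's test (adjusted p = 0.602). The order of the high-Sost clones was the reverse of that for Dkk1, with 12H above 15H by 0.67. Within the low-Sost clones the order differed too: 4L was the lowest for Wif1 and the highest for Dkk1. The difference in Wif1 was 1.91 without clone 4L.

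**Figure D2:**
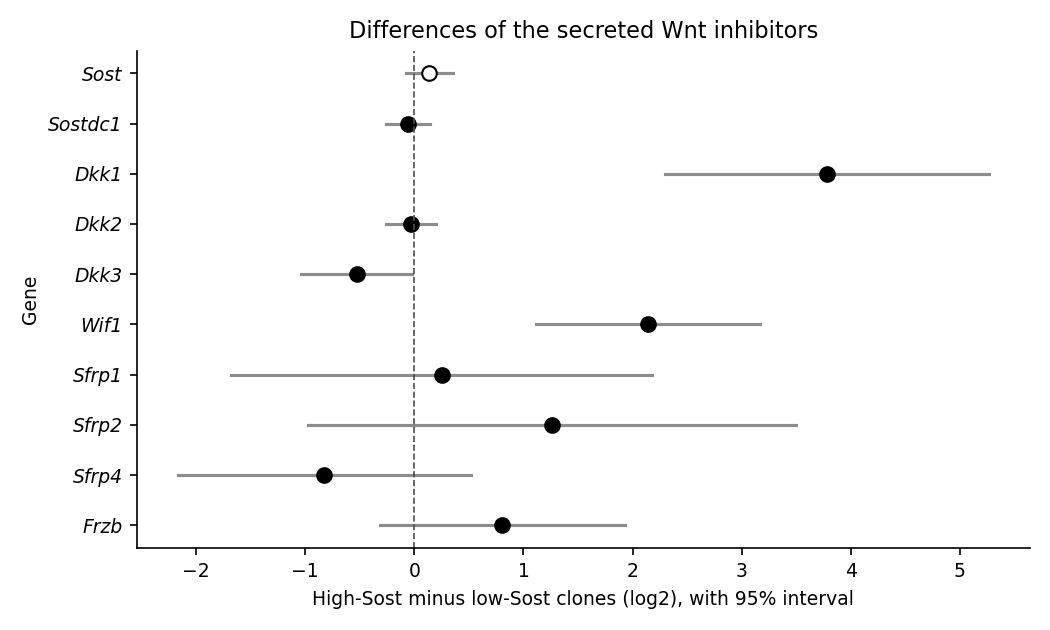
Difference between high-Sost and low-Sost clones (log2, horizontal axis) for each inhibitor, with its 95% interval from limma as a line; the open point is Sost, whose level chose the clones. The intervals of Dkk1 (2.30 to 5.27) and Wif1 (1.12 to 3.17) lie above 0, that of Dkk3 (-1.04 to -0.02) lies just under it, and those of the other 7 genes span 0; intervals are not adjusted for the number of genes.

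Sfrp2, a frizzled-related protein, read 9.67 in 12H and 9.30 in 15H, while 4L, 9L and 24L read 6.93, 8.63 and 9.11. The high-Sost clones lay above the rest by only 0.19, and clone 4L stood well below all others. The difference of 1.26 (SE 0.78, 95% interval -0.97 to 3.50, limma adjusted p = 0.737) was 0.62 without clone 4L, and the range over the clones was 2.75 with it and 1.05 without it.

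Sfrp4, another frizzled-related protein, whose loss in people causes thin cortical bone, read 4.22 in 12H and 3.80 in 15H, while 4L, 9L and 24L read 5.56, 4.24 and 4.71. Clones 12H and 9L were 0.03 apart, so the groups were hardly separate, and 4L stood highest. The difference of -0.83 (SE 0.47, 95% interval -2.17 to 0.52) was -0.47 without 4L. Frzb, which encodes the frizzled-related protein known from cartilage, read 3.75 in 12H and 2.74 in 15H, while 4L, 9L and 24L read 2.11, 2.53 and 2.67. Only the value of 12H lay above the low-signal reference of its array. The difference of 0.80 (SE 0.39, 95% interval -0.32 to 1.93) was 0.30 without 12H, 1.31 without 15H.

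Sfrp1, a frizzled-related protein whose loss in mice raises bone mass, did not follow the labels. It read 4.15 in 12H and 4.98 in 15H, while 4L, 9L and 24L read 3.78, 5.37 and 3.79. The highest and the lowest clone were both low-Sost clones. The difference of 0.25 (SE 0.67, 95% interval -1.68 to 2.18, limma adjusted p = 0.937) was negative when 15H (-0.16), 4L (-0.02) or 24L (-0.010) was left out.

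Regardless of the labels, the range over the 5 clones was 1 or more in 6 of the 10 inhibitors (Dkk1, Wif1, Sfrp2, Sfrp4, Frzb and Sfrp1), compared with 11.7% of all genes. It was 2 or more in Dkk1 (4.71), Wif1 (2.94) and Sfrp2 (2.75), compared with 2.98%. Clone 4L was the lowest or the highest clone in 7 of the 10, with Sost, Wif1, Sfrp1, Sfrp2 and Frzb lowest and Dkk2 and Sfrp4 highest there, while 39.3% of all genes had 4L at an extreme. Clone 12H was at an extreme in 5 (highest in Sost, Wif1, Sfrp2 and Frzb, lowest in Dkk3), against 40.2% of all genes. Clone 24L was at an extreme in Sostdc1 alone, against 33% of all genes. Ties did not count as an extreme and 1280 genes held 1 value on all arrays, so the shares over all genes are not fully comparable. Of the genes extreme in 4L, Dkk2 lay under the low-signal reference in every clone, Frzb did so in 4L, and Sost had a range of only 0.30. Without 4L, 6 of the 9 inhibitors other than Sost showed no overlap between groups, where 23.1% of all genes did.

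The genes nearest to Dkk1, Wif1 and Sfrp2 were found by the root mean square distance between profiles over the 5 clones, each gene centred on its own mean. This is a description over 5 arrays, and such closeness is sought among many genes. Nearest to Dkk1 was Megf10, an engulfment receptor (distance 0.48), which read 7.55 in 12H and 7.64 in 15H and between 3.76 and 4.08 in the low-Sost clones. Phex, an endopeptidase of phosphate homeostasis, followed (0.50) and shared with Dkk1 the higher value in 15H, 6.99 against 6.04 in 12H. The third was Spns2, a sphingosine-1-phosphate transporter (0.59). Nearest to Wif1 were Ncf1, a subunit of the phagocyte NADPH oxidase (0.17), the corepressor Rcor2 (0.19) and the junction adhesion molecule Jam2 (0.23). All 3 had 12H highest, 15H next and 4L lowest, as Wif1 had. Nearest to Sfrp2 were Lmo7 (0.15), the glycosyltransferase Gcnt1 (0.20) and Lrp4 (0.21), the co-receptor that anchors sclerostin.

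**Figure D3:**
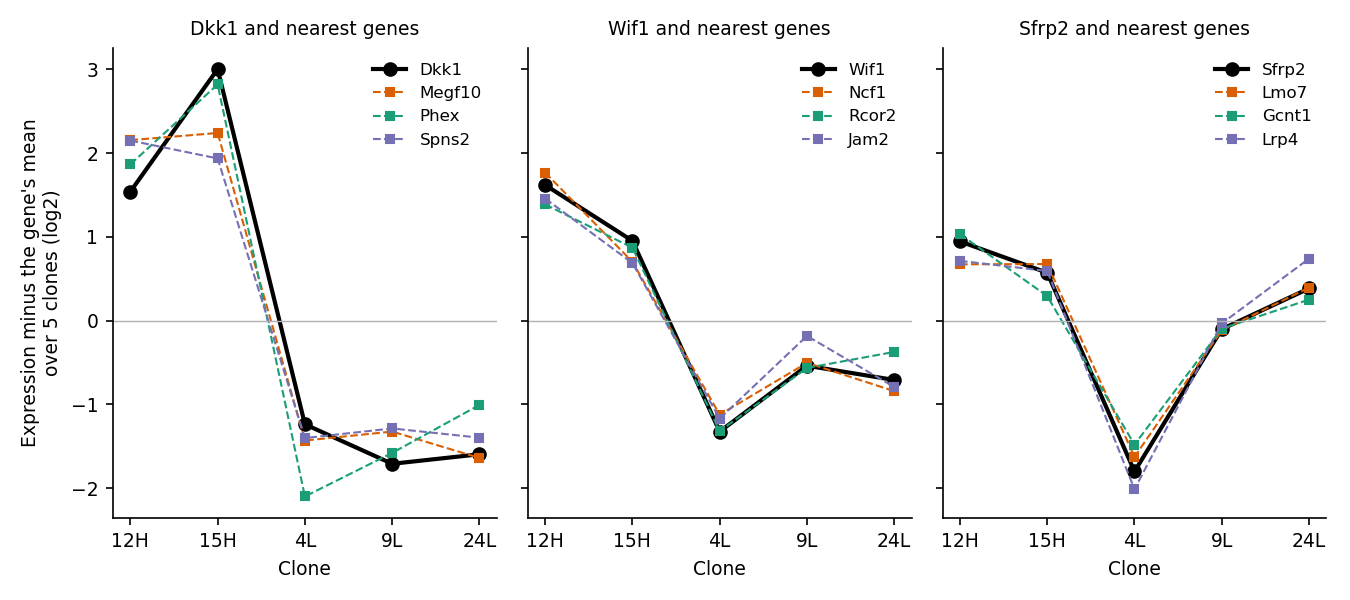
Expression minus the gene's mean over the 5 clones (log2, vertical axis) for Dkk1, Wif1 and Sfrp2 (black) and the 3 genes nearest to each (coloured); points are single arrays and lines only join the points of 1 gene. The Dkk1 group separates 12H and 15H from the rest, and the Sfrp2 group is marked by low values in 4L.

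Receptors on which inhibitors of these families act were measured in the same clones. Lrp4 read 7.42 in 12H, 7.29 in 15H and 7.44 in 24L, whereas 9L and 4L read 6.67 and 4.69, so clone 4L stood apart and the groups overlapped (1.09, SE 0.95, and 0.30 without 4L). Lrp5, a target of both sclerostin and Dkk1, read 7.47 and 7.90, while 4L, 9L and 24L read 6.86, 7.25 and 7.17, with no overlap (0.59, SE 0.20, limma adjusted p = 0.737). Lrp6 differed by -0.31 (SE 0.30) and Kremen1 by 0.25 (SE 0.16), both with overlap, and Kremen2 held the single value 4.67 on all arrays. Among 18 receptors and docking proteins 0 passed over all genes, and the median difference was -0.11, where the median over all genes was 0. Of them 3 lay above and 4 below without overlap, beside 8.26% and 7.75% of all genes. Ryk, a Wnt receptor with a kinase-like domain, differed by -0.20 (SE 0.07). Of the Frizzled genes in the fixed panel, Fzd1 differed by -1.12 (SE 0.51), Fzd4 by -0.26 (SE 0.28) and Fzd7 by -0.31 (SE 0.18), Fzd1 without overlap. Fzd5 and Fzd8, named after their values were seen, had the opposite sign without overlap, at 1.79 (SE 0.95) and 1.05 (SE 0.59), both with 4L lowest.

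Among the 19 Wnt ligands 0 passed, and the median difference was 0.10. Without overlap 2 lay above and 0 below, beside 8.26% and 7.75% of all genes, so the count above is near the background. The 2 ligands were Wnt10b, a ligand that favours bone formation, at 6.95 and 6.96 against 5.56 to 6.40 (difference 0.98, SE 0.28), and Wnt4, at 7.39 and 6.64 against 5.53 to 6.25 (1.21, SE 0.37). Wnt5a, a ligand of beta-catenin-independent signalling, overlapped between the groups (0.70, SE 0.82). Of 11 other secreted or surface antagonists 0 passed, 4 lay under the low-signal reference in every clone, and the median was 0.002. They included Dkk4 (0.29, SE 0.22) and Sfrp5 (0.13, SE 0.07), both with overlap, and Sfrp5 lay under the reference in every clone. Shisa2, which holds back Frizzled maturation, differed by 0.95 (SE 0.39) and Tpbg, a membrane inhibitor of Wnt signalling, by -0.61 (SE 0.29).

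Genes commonly induced by beta-catenin lay on both sides. Of 14 measured 0 passed over all genes, 3 lay above and 5 below without overlap (8.26% and 7.75% of all genes did), and the median difference was -0.19. At least 2-fold without overlap, 1 lay above and 3 below, beside 0.867% and 0.983% of all genes. Axin2, a feedback inhibitor, read 5.19 in 12H and 4.79 in 15H, while 4L, 9L and 24L read 6.49, 5.86 and 6.37. The groups did not overlap (difference -1.25, SE 0.26, limma adjusted p = 0.677). Among the low-Sost clones, 4L was highest and 9L lowest in Axin2, and the same held for Dkk1 (3.93 and 3.46). A link between the inhibitors and Axin2 was not tested. Myc differed by -0.66 (SE 0.16), also without overlap. So did Lgr5 (-2.26, SE 0.69) and Nkd1 (-1.41, SE 0.53), named after their values were seen. Lgr5 lay under the low-signal reference in both high-Sost clones. Ccnd1, the gene of cyclin D1, had the opposite sign, with 7.46 and 9.19 against 5.68 to 6.80 (1.90, SE 0.72, and 1.04 without 15H). The transcription factor Lef1 (-0.71, SE 0.50) and the feedback inhibitor Nkd2 (-1.28, SE 1.18) overlapped between the groups.

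Genes known to act on Sost had a median difference of 0.44 over 14 measured, with 0 passing over all genes, 7 above and 0 below without overlap, where 8.26% and 7.75% of all genes were. The list was not divided into genes that raise and genes that lower Sost, so these values give no direction of effect on it. The MEF2 factor gene Mef2d differed by 0.68 (SE 0.18) and the deacetylase gene Sirt1 by 0.72 (SE 0.20). Mef2c, whose product binds the distal Sost enhancer, differed by 1.73 (SE 0.84), Sp7, the osterix gene, by 3.78 (SE 1.91) and Pth1r, the parathyroid hormone receptor, by 2.55 (SE 1.34). Each of the last 3 was lowest in 4L, at 6.80, 2.68 and 4.23, and without 4L they differed by 1.03, 2.17 and 1.40. Clone 4L was the lowest or the highest clone in 39.3% of all genes. Hdac5 differed by 0.02 (SE 0.14) and was negative without 12H or 24L. Among 9 antagonists of bone morphogenetic proteins, to which sclerostin is related in structure, 0 passed, 2 lay above and 1 below without overlap (8.26% and 7.75% of all genes did) and the median was -0.16, with Twsg1 at -0.37 (SE 0.06, limma adjusted p = 0.602) and Nog, which encodes noggin, at 0.30 (SE 0.10).

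**Figure D4:**
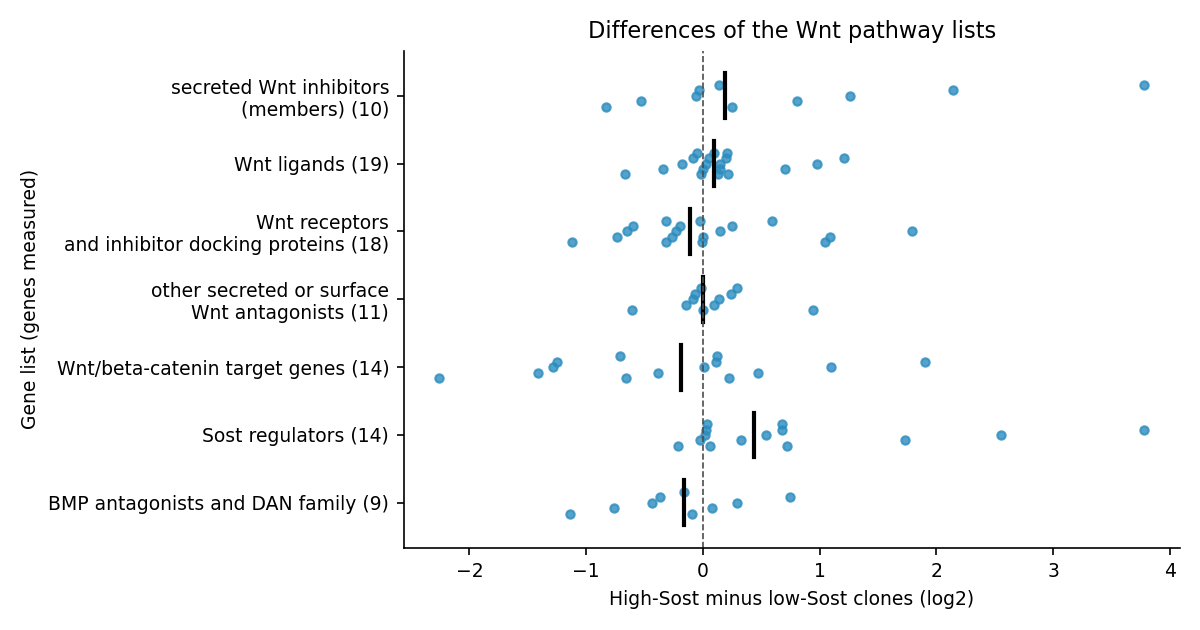
Difference between high-Sost and low-Sost clones (log2, horizontal axis) for each gene of the 10 secreted inhibitors and of 6 lists of related genes, with the number measured in brackets; each point is 1 gene and the black bar is the list's median. The medians run from -0.19 (target genes) to 0.44 (Sost regulators), with 0.19 for the inhibitors, and the 2 widest inhibitor differences are Dkk1 (3.78) and Wif1 (2.14).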

How the data were processed

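Total RNA of each clone was labelled with biotin and hybridised to 1 Affymetrix array (labels' protocols). Each deposited value is the log2 expression of a probe set. RMA, affy 1.36.1 and R 2.15.1 are named, without roles, in the submitters' processing notes; neither chip definition nor build is given in the sources used here. Among 25206 rows, 23185 had 1 gene in the platform table, all matched by Entrez number to RefSeq symbols (GRCm38.p6), and 2021 unnamed rows were left out. The number of arrays limits the precision.

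A linear model with the clone label as its term was fitted to every gene (limma 3.58.1, R 4.3.3, moderated by eBayes with 3 residual and 0.70 prior degrees of freedom). Its two-sided p-values were adjusted by Benjamini and Hochberg's method over all 23185 genes, and 0.05 was the threshold. The fit was tested on simulated data. The members and lists were chosen with earlier results of these data known. Named were the 10 members, a panel of 22 partner genes of which 20 were measured, the 2 genes of smallest p in each list where 0 passed, and the 3 nearest profiles of members with a range of 2 or more, leaving out predicted genes, sensory receptors and small RNAs. Motifs were chosen after the expression values were seen. Alternatives were a filter on the dimmest 30%, other scalings, a variance trend, array weights, no moderation and leaving out each clone.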

Additional observations from a re-analysis of the deposited data

How the results depend on the processing

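No inhibitor passed the adjusted threshold in any of the 11 alternative fits in which it was tested (10 for Sostdc1 and Frzb, which the filter on the dimmest 30% of genes removed). Dkk1 differed by 3.05 to 4.51 in them (adjusted p = 0.0897 to 0.754) and Wif1 by 1.81 to 2.48 (adjusted p = 0.214 to 0.754). Sost, Dkk1, Dkk3, Wif1, Sfrp2, Sfrp4 and Frzb kept their direction throughout. With 1 clone left out, Sfrp1 ran from -0.16 to 0.78, Dkk2 from -0.085 to 0.027 and Hdac5 from -0.10 to 0.11. Over all genes, 712 were higher and 628 lower at an unadjusted p under 0.05; with no moderation these were 461 and 406, and with 1 clone left out 633 to 1816 and 640 to 1289, the highest of both without 15H and 1098 and 1008 without 12H. At an adjusted p under 0.05 there were 0 genes, 2 (Megf10 and Spns2) with arrays shifted to 1 median, and 3 at an adjusted p under 0.1. Without 12H or 15H, the 1 high-Sost clone left was given the spread of the low-Sost group. The cause of these shifts was not tested. No paired analysis was possible because the clones of the groups share no replicate numbers. Genes near the low-signal reference have differences limited by background.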
